A study of Bos taurus with 12 samples.

Results

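HGFAC overexpression was examined in bovine (Bos taurus) precursor adipocytes, the stromal cells that can mature into fat cells, as the comparison of 3 libraries labelled pcDNA3.1-HGFAC (OE) with 3 labelled pcDNA3.1-NC (OE_NC). These are 6 of the 12 libraries of the study and were chosen by their titles. The other 6 (si and si_NC) belong to an interference experiment in the same cell type. All 12 were fitted in the same model unless stated. The si and si_NC libraries thus also shaped the filter, the scaling and the spread behind each p-value and SE. Their own changes are given only where named. All cells were collected 48 h after transfection, and polyadenylated RNA was sequenced with a stranded kit. The OE plasmid carries the coding region of HGFAC in pcDNA3.1, a vector for transient expression. The control plasmid is described in the labels as a negative control (NC) form of that insert, so it is not shown to be an empty vector, and no untransfected cells were included. The labels give no breed, sex or age of the animals and leave unsaid whether each replicate was its own culture. The p-values therefore describe the spread among the fitted libraries alone, and that spread may be technical.

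HGFAC encodes hepatocyte growth factor activator, a serine protease made mainly by the liver, secreted as a zymogen and activated by thrombin and related proteases. It cleaves the inactive single-chain precursor of hepatocyte growth factor (HGF), and the mature factor signals through the receptor tyrosine kinase MET to the ERK, PI3K and STAT3 pathways. Membrane inhibitors of the Kunitz type, among them the product of SPINT2, hold the protease in check. In fat tissue HGF is made by stromal cells and is known for its part in vessel growth.

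The 6 libraries held 32.7 to 38.2 M counts assigned to genes. The first principal component of the 6 libraries held 40.5% of the variance and separated the groups, with OE at -25.9 to -21.4 and OE_NC at 38.3, 21.2 and 10.7. The 3 OE libraries thus lay close together, whereas OE_NC replicate 1 lay farthest from OE and OE_NC replicate 3 nearest to it. Pearson correlations of log2 CPM (counts scaled by library size) were 0.9883 to 0.9916 within groups and 0.9817 to 0.9886 between them. The stromal markers VIM (5005 to 5350.3 CPM in OE, 5722 to 5820.5 CPM in OE_NC) and PDGFRA (318 to 331 and 219 to 302 CPM) were present in every library. In these bulk libraries, fewer cells of a type and less RNA per cell cannot be told apart.

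The transfected gene separated the groups without overlap. HGFAC had 6842, 5467 and 4472 counts in OE replicates 1, 2 and 3, or 190, 156 and 138 CPM. In OE_NC it had 10, 15 and 19 counts, or 0.273, 0.379 and 0.526 CPM. Its log2 fold change was 8.67 ± 0.19 (n = 3 against 3), a 407-fold difference, at an adjusted p of 4.31e-13 by edgeR's quasi-likelihood test. The error, called SE throughout, was derived from the F statistic of that test in the fit of 12 libraries. A 95% interval built from it, 306 to 542, is approximate and may be too narrow, as OE_NC held few HGFAC counts. An exact permutation test of HGFAC's CPM gave p = 0.1, the smallest that 3 against 3 libraries allow. Reads from the plasmid and reads from the cell's own gene are counted together. In the count table HGFAC spans bases 115437167 to 115445298 on the minus strand of chromosome 6, with 2895 exon bases; the sources used here name no genome build. The genes on either side of it were not called: LRPAP1 had a log2 fold change of -0.40 ± 0.15 (adjusted p = 0.12) and RGS12 one of 0.08 ± 0.16 (adjusted p = 0.814).

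No other gene of the HGF pathway passed the test. Of 11 tested genes of HGF activation and signalling, HGFAC alone was called by edgeR's quasi-likelihood test (adjusted p under 0.05), against 4.47% of all tested genes; the list's median log2 fold change was 0.08, beside -0.0046 for all tested genes. HGF, the substrate, was scarce: 1.05, 0.997 and 1.23 CPM in OE and 0.764, 0.607 and 0.858 CPM in OE_NC. Each OE library exceeded each OE_NC library, yet its log2 fold change of 0.56 ± 0.47 did not pass (adjusted p = 0.509). MET, the receptor, had 7.65, 6.41 and 5.82 CPM in OE and 9.33, 8.39 and 7.64 CPM in OE_NC, ranges that overlap only between OE replicate 1 and OE_NC replicate 3 (-0.35 ± 0.12, adjusted p = 0.111). The inhibitor SPINT2 (0.08 ± 0.14, adjusted p = 0.772) and the adaptor GRB2 (-0.21 ± 0.08, adjusted p = 0.122) were not called either. Among 10 tested plasminogen activators and inhibitors, 1 was called: PLAU, urokinase, which can also cleave the HGF precursor. PLAU had 62.7, 61.5 and 68.2 CPM in OE against 44.1, 47.4 and 50.1 CPM in OE_NC, and its log2 fold change was 0.44 ± 0.12 (adjusted p = 0.0458). With any 1 of the 6 libraries left out it lost its call. In interference (si minus si_NC) PLAU rose as well (0.48 ± 0.12, adjusted p = 0.0434). The difference between both changes was not called (adjusted p = 0.927).

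**Figure D1:**
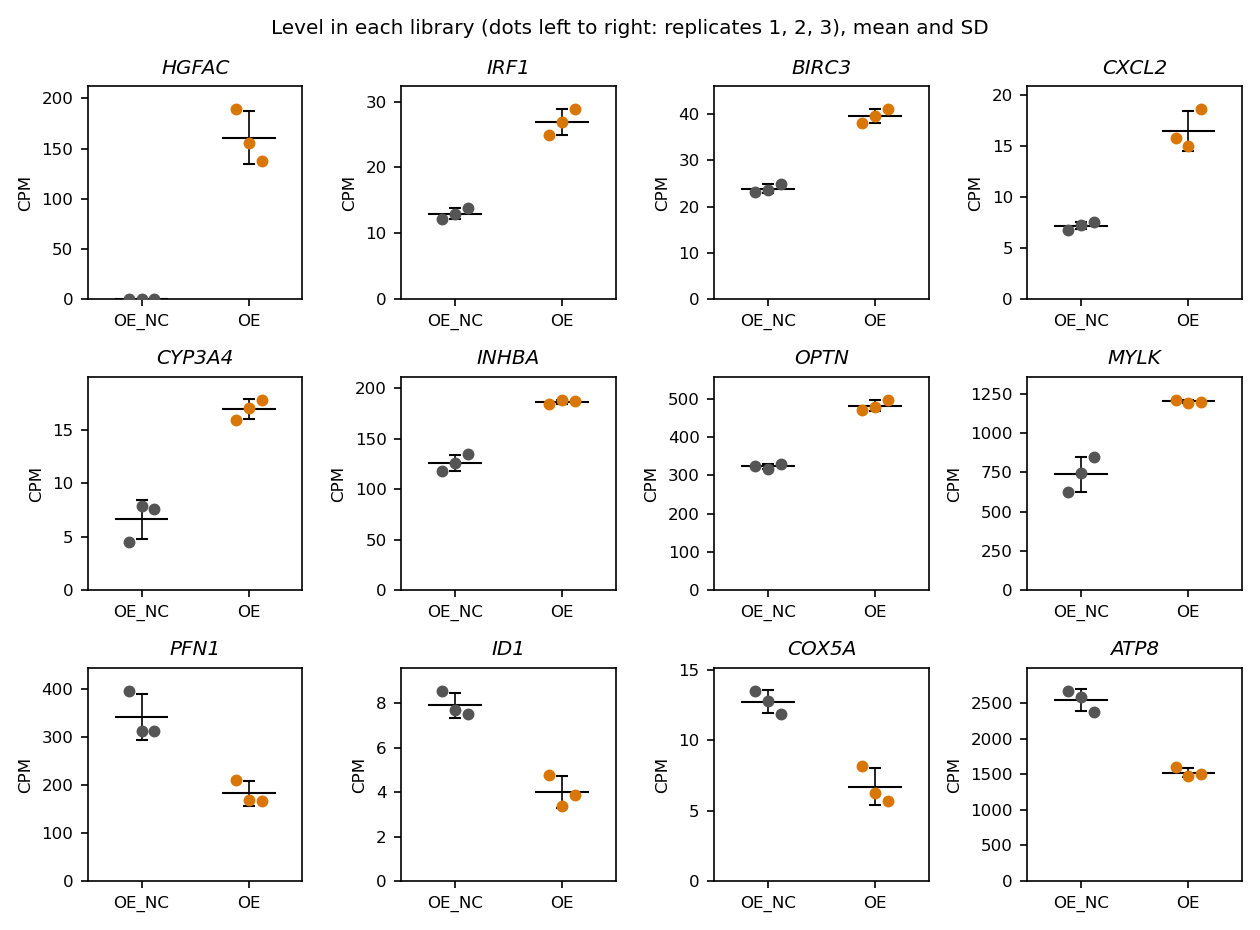
Level (CPM, linear axis from 0) of 12 genes in each OE_NC and OE library; dots are replicates 1, 2 and 3 from left to right, the horizontal line is the mean and the bar the SD (n = 3). HGFAC goes from under 1 CPM to 138 to 190 CPM, and in none of the 12 panels do the groups overlap.

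Across all genes, 728 of 16300 were called, or 4.47%: 362 (2.22%) were higher and 366 (2.25%) lower in OE. Most differences were small, with a median size of 0.48 on the log2 scale, and 16 rises and 70 falls reached 2-fold (0.528% of tested genes together). The groups did not overlap for 5436 genes (33.3%), of which 17.4% of all tested were higher and 16.0% lower in OE. Among the 727 called genes without overlap, OE_NC replicate 3 was the control library nearest to OE in 68.2% and OE_NC replicate 1 the farthest in 64.6%. Leaving out single libraries moved the number of called genes widely: with replicate 1, 2 or 3 of OE left out it was 225, 19 or 35, and with replicate 1, 2 or 3 of OE_NC left out it was 45, 32 or 758. Of the 728, 18 were called in all 6 of these refits. The gene lists used below, 50 in all, held 1348 tested genes and 122 of the 728 called ones. Rises only were found in 13 lists, falls only in 15, both in 7 and neither in 15. Counts of list members called higher or lower are to be read beside the 2.22% and 2.25% of all tested genes.

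Direction went with gene length. Called falls had a median summed exon length of 1150.5 bases and called rises one of 5026 bases, beside 2923 bases for all tested genes. Among the 4077 shortest genes (54 to 1627 bases) 6.06% were called lower and 0.613% higher, and among the 4074 longest (from 4861 bases) 0.319% were lower and 4.64% higher. In 4 classes of near equal size, from short to long, the median log2 fold change was -0.19, -0.036, 0.032 and 0.11. Within each library, the deviation of every gene from its mean over all 12 libraries was correlated with exon length. Across genes, which are not independent replicates, Spearman's rho was 0.15, 0.143 and 0.0848 in OE and -0.425, -0.194 and -0.1 in OE_NC. OE_NC replicate 1 thus had the steepest trend. When each library's trend on exon length was taken out as an offset, 539 genes were called (3.31%), 393 higher (2.41%) and 146 lower (0.896%), and 374 of the 728 were still called, 236 higher and 138 lower. Values with the offset are given below beside the gene groups whose calls or median it moved most; what made the libraries differ in this trend was not tested.

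**Figure D2:**
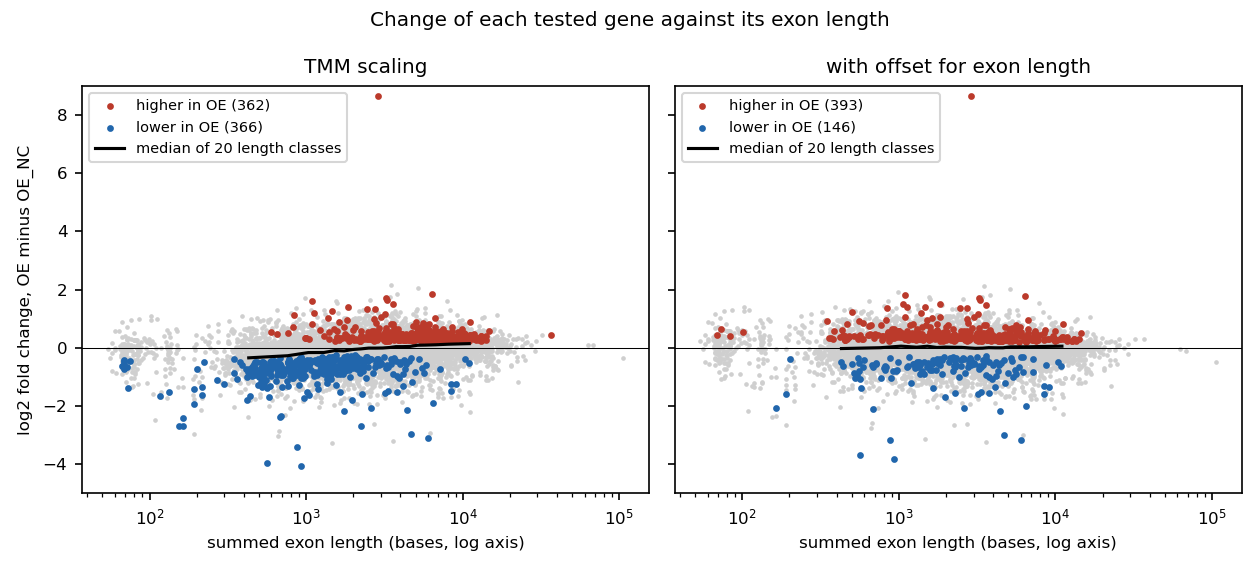
Log2 fold change (OE minus OE_NC) of every tested gene against its summed exon length (bases, log axis), with TMM scaling on the left and with an offset for each library's length trend on the right; red and blue points are called higher (362 and 393) and lower (366 and 146), grey points are not called. The black line, the median of 20 length classes, rises from left to right in the left panel and is nearly flat in the right one; the lone point near the top is HGFAC.

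The 18 genes called in every refit with 1 library left out were 9 rises and 9 falls, and 17 of them were also called with the length offset. Apart from HGFAC, the rises included IRF1, which switches on interferon-responsive genes (chromosome 7, 21938660 to 21946686), with 25, 26.9 and 28.9 CPM in OE and 12.1, 13.0 and 13.8 CPM in OE_NC (1.05 ± 0.12, adjusted p = 0.00081). BIRC3, an inhibitor of apoptosis that takes part in NF-kB signalling, had 38, 39.6 and 41.1 CPM against 23.2, 23.6 and 24.9 CPM (0.73 ± 0.07, adjusted p = 0.000418). For both genes the groups lay far apart relative to the spread within them. INHBA, which encodes the subunit from which activin A is built, had 185, 189 and 187 CPM against 118, 126 and 135 CPM (0.57 ± 0.07, adjusted p = 0.00192). OPTN, a receptor for selective autophagy, had 470, 480 and 498 CPM against 324, 317 and 330 CPM (0.58 ± 0.08, adjusted p = 0.00272). CYP3A4, annotated as a cytochrome P450 of drug and steroid metabolism, showed the largest of these rises other than HGFAC among genes with a symbol: 16.0, 17.1 and 17.8 CPM against 4.53, 7.83 and 7.58 CPM (1.35 ± 0.20, adjusted p = 0.00529). NUB1, which lowers the level of the ubiquitin-like protein NEDD8 (0.54 ± 0.07), and CCDC112 (0.55 ± 0.07) completed the named rises, both at an adjusted p of 0.00272. NUB1 shares 386 of 3420 exon bases with WDR86 on the other strand. The ninth, LOC107132617, lies antisense to IRF1 and shares 100 exon bases with it, of 3022 in IRF1; the sources used here do not say whether counting used strand, so reads on that stretch cannot be assigned to one of the pair.

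The 9 falls of this set included PFN1, profilin, which binds actin monomers: 211, 169 and 166 CPM in OE against 395, 313 and 312 CPM in OE_NC (-0.90 ± 0.12, adjusted p = 0.00243). ID1, an inhibitor of basic helix-loop-helix factors and a target of BMP signalling, had 4.77, 3.36 and 3.88 CPM against 8.56, 7.68 and 7.50 CPM (-0.98 ± 0.13, adjusted p = 0.00272). COX5A, a subunit of respiratory complex IV, had 8.20, 6.24 and 5.73 CPM against 13.5, 12.8 and 11.9 CPM (-0.92 ± 0.13, adjusted p = 0.00347). In each of these the highest OE library, replicate 1, was still below the lowest OE_NC library. IER5L, listed with the immediate early genes, fell by 0.90 on the log2 scale (SE 0.13, adjusted p = 0.00347). ATP8, a mitochondrially encoded subunit of ATP synthase, had 1603, 1472 and 1497 CPM against 2671, 2588 and 2372 CPM (-0.74 ± 0.06, adjusted p = 7.34e-05); it shares 40 of its 201 exon bases with ATP6. The other 4 were the uncharacterised LOC616840 and LOC112441594, the small nuclear RNA gene LOC112442853 (191 bases; -1.94 ± 0.25) and the mitochondrial transfer RNA KEH36_t14 (67 bases), the last of which lost its call with the length offset (-0.64 without it, adjusted p = 0.16 with it).

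A part of the interferon response was higher in OE. Of 32 tested interferon-stimulated effectors, 8 rose and 0 fell, beside 2.22% and 2.25% of all tested genes. Their median log2 fold change was 0.35. In 17 of the 32 every OE library exceeded every OE_NC library, and in 2 every OE library was lower. Over all tested genes these shares were 17.4% and 16.0%. The summed level of the list was 478 to 485 CPM in OE and 328 to 392 CPM in OE_NC. With the length offset 9 rose and 0 fell, with a median of 0.43. Leaving out OE replicate 1 gave a count of 3, leaving out OE_NC replicate 3 gave 8 and leaving out any 1 of the other 4 libraries gave 0.

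The 8 effectors that rose were GBP4 and GBP5, guanylate-binding proteins that attack intracellular pathogens, the ADP-ribosyltransferase family members PARP9 and PARP14, the antiviral GTPase MX1, the ubiquitin ligases TRIM5 and TRIM25, and EPSTI1. GBP4 had 8.81, 8.66 and 9.52 CPM in OE and 3.55, 5.38 and 5.45 CPM in OE_NC (0.91 ± 0.18, adjusted p = 0.019). PARP14 had 63.2, 62.2 and 64.2 CPM against 28.5, 37.8 and 44.5 CPM (0.78 ± 0.17, adjusted p = 0.0275). In both, the OE libraries differed little while OE_NC spread upward from replicate 1. MX1 had 8.04, 8.89 and 9.95 CPM against 4.91, 4.6 and 7.20 CPM (0.69 ± 0.18, adjusted p = 0.0485). TRIM25, which activates the RNA sensor RIG-I, had 79.5, 85.0 and 88.0 CPM against 61.5, 63.4 and 69.2 CPM (0.38 ± 0.07, adjusted p = 0.0172). PARP9 shares 143 exon bases with DTX3L on the other strand, so its rise of 0.82 ± 0.21 is uncertain. ISG15, a classical effector, was near the limit of measurement at 0.285 to 0.493 CPM in OE and 0.138 to 0.273 CPM in OE_NC (0.98 ± 0.43, adjusted p = 0.195). IFI44L had 0.256 to 0.831 CPM in OE against 0.109 to 0.227 CPM (1.65 ± 0.53, adjusted p = 0.0827), also without a call. Of the 32 effectors 8 had negative log2 fold changes, and the largest of these was that of the chemokine CXCL11, with 0.166, 0.171 and 0.185 CPM against 0.546, 0.404 and 0.387 CPM (-1.34 ± 0.40, adjusted p = 0.0647). SAMD9, an antiviral factor, was among the 12 largest rises though in none of these lists, at 0.84 ± 0.22.

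Sensors of foreign nucleic acid and the interferon transcription factors moved the same way in smaller number. Of 15 tested sensors 3 rose and 0 fell, with a median log2 fold change of 0.16. ZBP1, which senses Z-form nucleic acid, had 1.33, 1.17 and 1.54 CPM in OE and 0.218, 0.404 and 0.498 CPM in OE_NC (1.84 ± 0.43, adjusted p = 0.0322). IFI16, a DNA sensor, had a log2 fold change of 0.48 ± 0.11, and EIF2AK2, the kinase PKR that binds double-stranded RNA, one of 0.39 ± 0.09; EIF2AK2 shares 1838 of 10723 exon bases with GPATCH11 on the other strand. IFIH1, the RNA sensor MDA5, had 3.38, 3.36 and 3.57 CPM against 0.873, 1.52 and 2.05 CPM but missed the threshold (1.22 ± 0.35, adjusted p = 0.0601), whereas the DNA sensor CGAS had lower values in OE, at 2.03 to 2.55 CPM against 2.93 to 3.93 CPM (-0.56 ± 0.19, adjusted p = 0.0974). Of 21 tested interferon regulatory factors, STATs and receptors 2 rose, IRF1 and IRF9 (0.58 ± 0.14, adjusted p = 0.0394), and 0 fell. STAT3 was not called (0.47 ± 0.13, adjusted p = 0.0567), although no OE library overlapped OE_NC for it.

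NF-kB feedback genes, chemokines, antigen presentation and complement followed. Of 26 tested NF-kB genes 3 rose and 0 fell: BIRC3, NFKBIZ, a nuclear cofactor of NF-kB (0.52 ± 0.13), and TNIP1, which restrains the pathway (0.43 ± 0.07, adjusted p = 0.0112). TNIP1 had 170, 181 and 185 CPM in OE and 126, 134 and 139 CPM in OE_NC. Of 23 tested chemokines and cytokines 4 rose and 1 fell. The neutrophil attractant CXCL2 had 15.7, 15 and 18.6 CPM against 6.79, 7.23 and 7.56 CPM (1.19 ± 0.18, adjusted p = 0.00728), and GRO1, the bovine name for CXCL1, had 34.4, 27.7 and 30.2 CPM against 19.0, 14.9 and 18.1 CPM (0.83 ± 0.20, adjusted p = 0.0363). Their close relatives CXCL3 (0.53 ± 0.17, adjusted p = 0.0807) and CXCL5 (0.40 ± 0.13, adjusted p = 0.0796) were not called, and reads of such near copies could have been split between them in counting. IL7 (0.49 ± 0.12) and the receptor LIFR (0.47 ± 0.11) rose, and TSLP, under 0.6 CPM in every library, fell (-2.35 ± 0.63, adjusted p = 0.0488). With the offset 3 rose and 0 fell: LIFR (adjusted p = 0.0982) and TSLP (adjusted p = 0.0945) lost their calls.

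Of 20 tested genes of MHC class I antigen presentation 4 rose and 0 fell, with a median of 0.20. PSME1, a subunit of the proteasome activator PA28, had 284, 283 and 292 CPM in OE against 225, 225 and 223 CPM in OE_NC (0.35 ± 0.07, adjusted p = 0.0254). The peptide-trimming peptidases ERAP1 and ERAP2 had log2 fold changes of 0.80 ± 0.19 and 0.91 ± 0.24, and the class I heavy chain JSP.1, one of a family of near copies and therefore uncertain, one of 0.40 ± 0.11. With the offset 3 rose, and ERAP2 missed the threshold (adjusted p = 0.0538). Of 20 tested complement and pattern recognition genes 4 rose and 0 fell, with a median of 0.41; with the offset 3 rose. PTX3, a soluble pattern recognition molecule, had 29.7, 32.2 and 33.9 CPM against 7.91, 12.1 and 15.8 CPM (1.42 ± 0.26, adjusted p = 0.0144), the largest rise after HGFAC among genes with a symbol and a mean of at least 5 CPM. C1R, a protease of the first complement component, had 16.6, 16.9 and 17.6 CPM against 6.0, 8.64 and 11.0 CPM (1.00 ± 0.25, adjusted p = 0.0401). Its partner C1S was close to it in size but not called (0.85 ± 0.27, adjusted p = 0.082). C1R shares 517 of 2731 exon bases with LOC112446757 on the other strand. CFB, of the alternative pathway, rose by 1.32 ± 0.26.

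Counted together, the 7 lists from sensors to complement held 157 different tested genes, of which 28 (17.8%) rose and 1 fell, beside 2.22% and 2.25% of all tested genes. In 70 of the 157 OE lay wholly above OE_NC and in 14 wholly below, beside 17.4% and 16.0% of all tested genes. With the length offset 26 rose, 25 of them among the 28. The 28 became 9, 3 or 3 with replicate 1, 2 or 3 of OE left out, and 3, 2 or 26 with replicate 1, 2 or 3 of OE_NC left out. Among the 7 tested markers of immune cells 0 were called, their sum was 11.5 to 14.3 CPM in OE and 13.1 to 13.3 CPM in OE_NC, and the macrophage markers CD68 (3.35 to 4.64 CPM against 4.35 to 4.48 CPM) and CD163 (2.22 to 2.53 CPM against 2.32 to 3.03 CPM) overlapped between the groups.

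**Figure D3:**
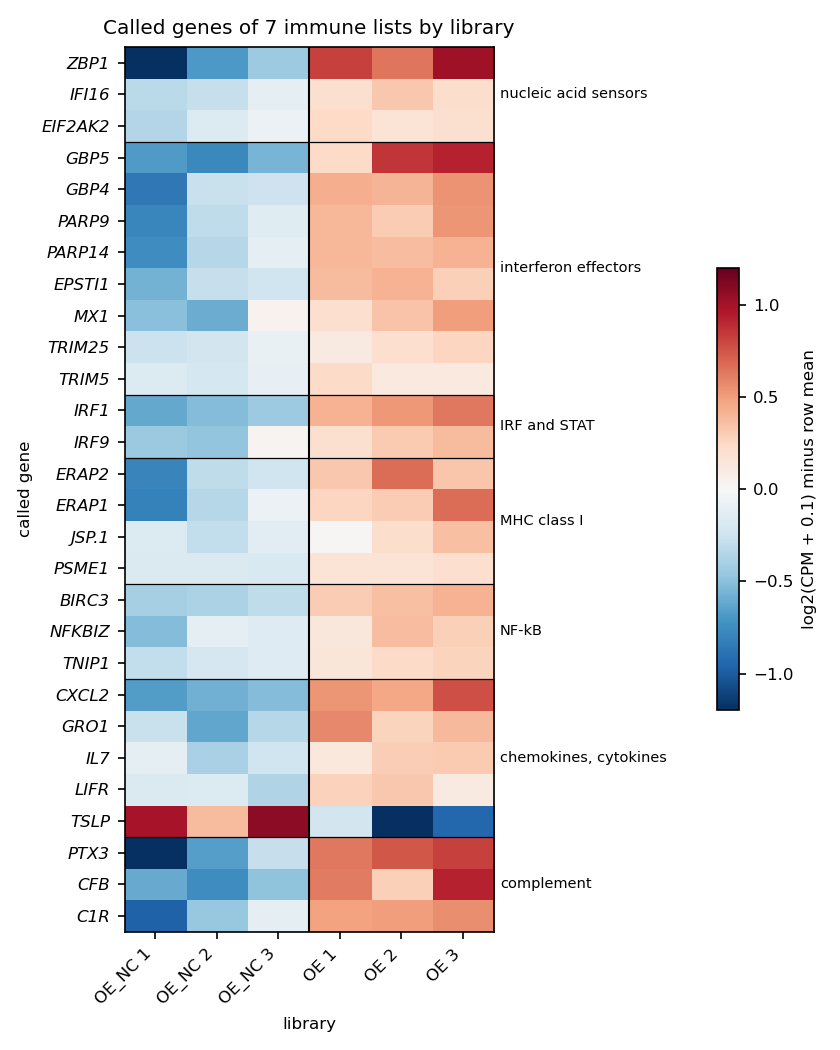
Of the 29 called genes of the 7 immune lists, 28 are drawn in each library, as log2(CPM + 0.1) minus the mean of the gene over the 6 libraries (colour from -1.2 in blue to 1.2 in red, with values beyond these drawn in the end colour), grouped by list. The 27 drawn genes that rose are blue or near white in OE_NC and red or near white in OE, and TSLP shows the opposite.

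BMP and TGF-beta genes held calls in both directions. Of 31 tested, 2 rose and 4 fell, around a median of -0.0076. With 1 library left out, 1 rose and 1 to 4 fell. The 4 falls were the BMP target genes ID1, ID2 (-0.43 ± 0.12), ID3 (-0.39 ± 0.10) and SMAD6, an inhibitor of BMP signalling (-0.56 ± 0.13). ID2 had 14.5, 16.1 and 14.8 CPM in OE and 22.7, 21.0 and 17.7 CPM in OE_NC, and ID3 had 16.7, 17.7 and 18.3 CPM against 25.1, 22.7 and 21.6 CPM. The groups of both were separate by a narrow margin, and both calls were lost with the length offset (adjusted p = 0.0894 and 0.409), while ID1 (adjusted p = 0.0162) and SMAD6 (adjusted p = 0.0277) kept theirs. ID2 shares 339 of 2060 exon bases with LOC101905845 on the other strand. The rises were INHBA, a ligand subunit, and LTBP1, which holds latent TGF-beta in the matrix (0.42 ± 0.11, adjusted p = 0.048; 0.0646 with the offset).

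Immediate early genes and the feedback genes of the ERK pathway, which HGF is known to activate, held falls and no rise. Of 25 tested immediate early transcription factors 2 fell, FOSB, under 2 CPM in every library (-1.50 ± 0.39, adjusted p = 0.0431), and IER5L. Of 17 tested ERK feedback genes 3 fell: the phosphatases DUSP1 and DUSP5 and the gene PHLDA1. DUSP1 had 87.0, 88.3 and 94.2 CPM in OE against 109, 117 and 110 CPM in OE_NC (-0.32 ± 0.08, adjusted p = 0.0464). DUSP5 was near 1 CPM (-1.02 ± 0.25, adjusted p = 0.0363), and PHLDA1 had a log2 fold change of -0.37 ± 0.09. With the offset the ERK list kept 1 call, DUSP5 (adjusted p = 0.0463). With 1 library left out the ERK list held 0 to 2 falls and the immediate early list 1 to 2. The medians of both lists were -0.091 and -0.090 (-0.14 and -0.10 with the offset), beside -0.0046 for all genes, and 19 of the 25 immediate early genes had negative log2 fold changes.

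Some contractile genes of the smooth muscle type were higher. Of 19 tested 6 rose and 0 fell, while 6 had negative log2 fold changes and the list's median was 0.094. In 7 members OE lay wholly above OE_NC and in 2 wholly below, beside 17.4% and 16.0% of all tested genes. DESeq2's Wald test called 6 members higher and 1 lower, and edgeR scaled by library totals 4 higher and 1 lower. With 1 library left out, 0 to 1 fell. The summed level was 44688 to 45439 CPM in OE and 38557 to 38896 CPM in OE_NC, with no overlap. Much of that gap came from the single gene CALD1, with a mean of 18512 CPM in OE and 13693 CPM in OE_NC. MYLK, the kinase that activates myosin light chains, had 1214, 1196 and 1199.9 CPM in OE against 623, 748 and 847 CPM in OE_NC (0.70 ± 0.16, adjusted p = 0.0285). CALD1, caldesmon, an actin-binding regulator and the most abundant called gene by counts, had 18892, 18635 and 18009.8 CPM against 12423, 14573 and 14081 CPM (0.44 ± 0.09, adjusted p = 0.0245). The OE libraries were tight in both and OE_NC replicate 1 was lowest. MYL4, a myosin light chain, had 9.70, 8.71 and 9.46 CPM against 3.76, 3.71 and 5.2 CPM (1.14 ± 0.21, adjusted p = 0.0161), and MYH11, the smooth muscle myosin heavy chain, had 14.8, 15.6 and 13.9 CPM against 6.22, 7.40 and 8.33 CPM (1.01 ± 0.17, adjusted p = 0.0118). MYH11 shares 686 of 6667 exon bases with NDE1 on the other strand. The intermediate filament gene DES (0.42 ± 0.10) and SYNPO2, of the Z disc (0.57 ± 0.15), completed the list. With the length offset 7 rose and 0 fell, with a median of 0.14; with replicate 1, 2 or 3 of OE left out there were 2, 0 or 1 rises, and with replicate 1 or 2 of OE_NC left out there were 0. Outside the list, the nonmuscle myosin MYH10 had 7126, 7293 and 7082 CPM against 4455, 5004 and 5449.9 CPM (0.53 ± 0.08, adjusted p = 0.00907), and the actin-binding NEXN had 9573, 9371 and 8669 CPM against 7274, 7287 and 7129 CPM (0.35 ± 0.06, adjusted p = 0.0144); on the other strand, MYH10 shares 1339 exon bases with NDEL1 and NEXN 1059 with FUBP1. Among 38 tested genes of actin turnover and motility, PFN1 alone was called, and the median was -0.024. With the offset the median turned to 0.058 and 4 genes rose beside the fall of PFN1: DSTN, RHOA, MYL6 and TMSB10, whose log2 fold changes without it lay between -0.032 (TMSB10) and 0.17 (RHOA). The skeletal muscle actin ACTA1, at 9.23 to 10.6 CPM against 13.8 to 17.3 CPM, fell (-0.68 ± 0.14, adjusted p = 0.0208), and the skeletal muscle regulator MYOG was at 0 counts.

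Matrix genes had higher values in OE with few calls. Of 26 tested collagens 0 were called by edgeR, although 23 had positive log2 fold changes. Of those 23, 10 had an unadjusted p under 0.05, beside 3736 of all 16300 tested genes in either direction. The median of the collagens was 0.30 (0.23 with the offset). DESeq2's Wald test called 3 of them higher, edgeR on only the 6 libraries of this experiment 7, edgeR without a filter on low counts 12, and edgeR with replicate 3 of OE_NC left out 3. COL11A1 had 1222, 1223 and 1221 CPM in OE against 611, 817 and 946 CPM in OE_NC (0.63 ± 0.19, adjusted p = 0.0729), and COL5A2 had 2536, 2562 and 2611 CPM against 1347, 1817 and 2091 CPM (0.55 ± 0.17, adjusted p = 0.0676). The spread among the OE_NC libraries was large beside that of OE. For COL1A1, the main fibrillar collagen, OE_NC replicate 3 at 4512 CPM lay within the OE range of 4166 to 4607 CPM and OE_NC replicate 1 at 2494 CPM far below it. Of 37 tested matrix glycoproteins and proteoglycans 2 rose and 0 fell: FN1, fibronectin, with 790, 807 and 808 CPM against 433, 552 and 608 CPM (0.59 ± 0.16, adjusted p = 0.0474), and POSTN, periostin, with 1008, 992 and 996 CPM against 799.9, 796 and 809 CPM (0.32 ± 0.07, adjusted p = 0.0303). Of 28 matrix proteases and crosslinkers 1 rose, MMP14, a membrane metalloprotease (0.41 ± 0.10, adjusted p = 0.0401).

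Genes of fat cell formation gave almost no calls. By edgeR, 0 of 24 tested adipogenic transcription factors and 0 of 27 genes of the lipid droplet and triglycerides were called. It also called 0 of 21 genes of fatty acid synthesis and 0 of 27 of fatty acid oxidation. An unadjusted p under 0.05 was found for 3736 of all 16300 tested genes, in either direction. In these lists in turn, 4, 2, 4 and 3 genes with such a p were higher and 1, 4, 0 and 3 lower. DESeq2's Wald test called 0, 0, 1 and 1 members higher and 1, 1, 0 and 1 lower. With the length offset edgeR called 1, FABP5, a fatty acid carrier, higher. CEBPD, an early adipogenic factor, had 7.78 to 9.21 CPM against 5.70 to 6.50 CPM (0.49 ± 0.18, adjusted p = 0.119). PLIN2, which coats lipid droplets (0.16 ± 0.08, adjusted p = 0.27), the fatty acid carrier FABP4 (0.44 ± 0.37, adjusted p = 0.51) and the triglyceride synthase DGAT1 (-0.57 ± 0.18, adjusted p = 0.0787) did not pass. The 5 tested markers of mature adipocytes summed to 28.5 to 29.5 CPM in OE and 27.0 to 30.1 CPM in OE_NC. Of 22 tested factors opposing adipogenesis 1 was called: GATA2, which holds cells in the preadipocyte state, had 18.7, 18.7 and 16.2 CPM against 29.4, 26.7 and 22.9 CPM (-0.56 ± 0.10, adjusted p = 0.0122), also with the offset (adjusted p = 0.00998), under which DDIT3 of this list rose too. It shares 771 of 3021 exon bases with an antisense gene, LOC101906160. ABCA1, which exports cholesterol, was the only call among 29 cholesterol genes (0.45 ± 0.11, adjusted p = 0.0401); with the offset its adjusted p was 0.125. MEOX1, a homeobox gene of mesodermal progenitors, was the only call among 18 preadipocyte and stromal markers, with 8.37, 9.23 and 8.93 CPM against 2.07, 3.94 and 5.76 CPM (1.17 ± 0.31, adjusted p = 0.0474). The summed level of that list was lower in OE without overlap, at 8579 to 8809 CPM against 8994 to 9156 CPM. DESeq2's Wald test and edgeR on only the 6 libraries each called 2 members higher and 1 lower. With library totals edgeR called 0 higher and 1 lower.

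The lists with most falls were made of short genes. Of the 13 mitochondrially encoded proteins 9 fell and 0 rose, with a median of -0.37 and a median exon length of 781 bases, and these genes took 1.31 to 1.37% of counts in OE and 1.72 to 1.80% in OE_NC. ND1, of complex I, had 968, 984 and 968 CPM in OE against 1403, 1322 and 1287 CPM in OE_NC (-0.46 ± 0.07, adjusted p = 0.00711), and COX3, of complex IV, had 1055, 1060.0 and 989.7 CPM against 1487, 1361 and 1335 CPM (-0.43 ± 0.07, adjusted p = 0.00829). The groups were wide apart in both genes. With the length offset the list's median was -0.086 and ATP8 alone stayed lower. With replicate 2 or 3 of OE left out there was 1 fall, and with replicate 1 or 2 of OE_NC left out there were 5 or 3.

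Of 76 tested nuclear genes of the respiratory chain 10 fell and 0 rose, with a median of -0.14; with the offset the median turned to 0.04, and 9 rose and 1 fell. The falls included COX5A, COX8A, near 1 to 2 CPM (-1.02 ± 0.24), and the ATP synthase subunit ATP5MC3 (-0.64 ± 0.12). The one that fell with the offset too was COX5A (adjusted p = 0.0136). Of 78 tested cytosolic ribosomal proteins 16 fell and 0 rose, with a median of -0.29 and a median exon length of 692 bases. RPL6 had 1219, 1280.2 and 1421 CPM against 2331, 1981 and 1880.2 CPM (-0.66 ± 0.12, adjusted p = 0.0132). OE_NC replicate 1 was its highest library. With the offset the median was -0.012, with 1 rise and 2 falls, and RPL6 was 1 of the falls (adjusted p = 0.0145). The 10 respiratory falls became 4, 1 or 1 with replicate 1, 2 or 3 of OE left out, and 1 with replicate 1 or 2 of OE_NC left out. The 16 ribosomal falls became 1, 0 or 2 with replicate 1, 2 or 3 of OE left out, and 0, 1 or 27 with replicate 1, 2 or 3 of OE_NC left out. Of 78 mitochondrial ribosomal proteins 3 fell and 0 rose; with the offset 3 rose and 1 fell, and the median went from -0.16 to 0.026.

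**Figure D4:**
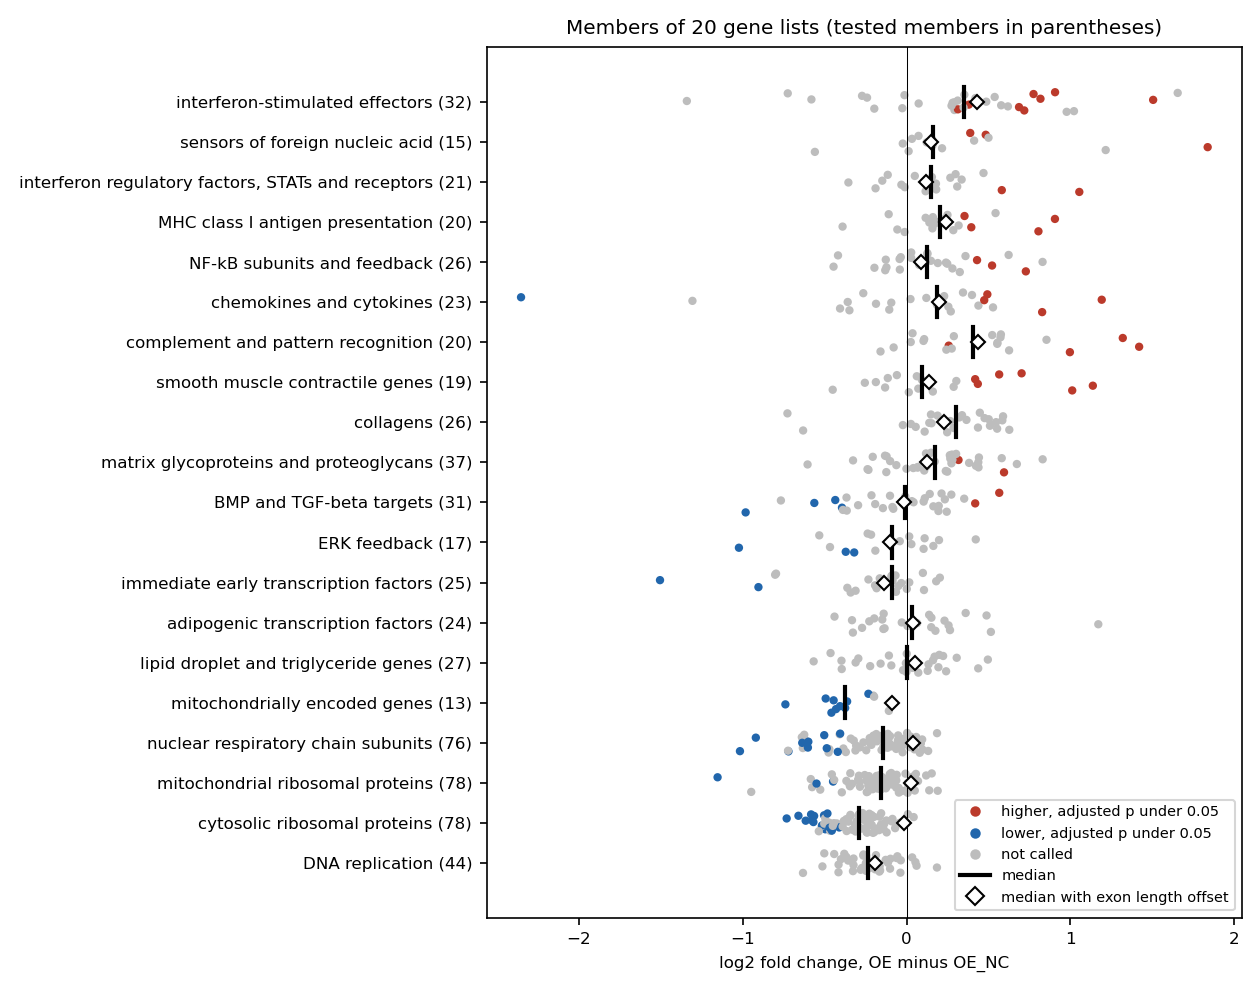
Log2 fold change (OE minus OE_NC) of the tested members of 20 lists, HGFAC aside; red and blue points are called higher and lower, grey points are not called, black bars are medians and open diamonds the medians with the length offset. Bars and diamonds lie close together for the immune lists (0.35 and 0.43 for interferon effectors) and apart for the mitochondrial and ribosomal lists (-0.29 and -0.012 for cytosolic ribosomal proteins).

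Other cell functions gave scattered calls. Of 47 tested genes of the endoplasmic reticulum and secretion 6 fell and 0 rose, among them SERP1, which stabilises membrane proteins under stress, with 12.7, 5.84 and 6.01 CPM in OE against 19.9, 15.2 and 15.5 CPM in OE_NC (-1.04 ± 0.24, adjusted p = 0.0322), and the secreted chaperone MANF (-0.53 ± 0.12); with the offset 2 rose and 1 fell. SERP1 was higher in OE replicate 1 than in the other OE libraries, though still below OE_NC. RN7SL1, the RNA of the signal recognition particle (299 bases), fell by 1.23 on the log2 scale (SE 0.33, adjusted p = 0.0489). Of 49 splicing factors 4 rose (LUC7L3, RBM25, CLK4 and HNRNPF, by 0.23 to 0.36 on the log2 scale) and 2 fell (SRSF2 by 0.43 and HNRNPL by 0.40). SRSF2 shares 1135 of 4188 exon bases with METTL23 on the other strand. With the offset LUC7L3 alone rose and both falls were called; with replicate 3 of OE_NC left out there were 1 rise and 2 falls, and with any other single library left out 0 rises. Of 27 p53 targets the ribonucleotide reductase subunit RRM2B rose (0.66 ± 0.12, adjusted p = 0.0161) and the death effector BAX fell (-0.60 ± 0.09, adjusted p = 0.00676). BAX had 43.6, 34.9 and 38 CPM against 63.4, 54.3 and 58.9 CPM.

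Among growth genes the share called was close to the 4.47% of all genes in 2 of 3 lists (5% of mitosis and 4.76% of G1 genes). Of 44 tested DNA replication genes edgeR called 0, and their median was -0.23 (-0.19 with the offset). At an unadjusted p under 0.05, 1 was higher and 14 were lower, beside 3736 of all 16300 tested genes in either direction. Replication genes were called lower, and none higher, under other settings: 5 in the fit of only the 6 libraries, 4 with library totals, 4 with DESeq2's Wald test and 8 without a filter on low counts. The helicase subunit MCM2 had 85.7, 44.8 and 50.4 CPM in OE and 124, 74.8 and 81.6 CPM in OE_NC (-0.63 ± 0.22, adjusted p = 0.109), with OE replicate 1 inside the OE_NC range. Of 40 mitosis genes 2 fell, CDC20, an activator of the anaphase-promoting complex (-0.54 ± 0.14), and CKS2, a cofactor of cyclin-dependent kinases (-0.58 ± 0.16), neither of them with the offset (adjusted p = 0.0661 and 0.204). The cell cycle inhibitor gene CDKN2A had 24.6, 19.4 and 15.3 CPM against 43.2, 28.7 and 35.0 CPM (-0.85 ± 0.20, adjusted p = 0.0318; 0.0688 with the offset) and was the only call among 21 G1 genes. In the hypoxia and glycolysis list of 36, HIF1A, the hypoxia-inducible factor, had 104, 114 and 106 CPM against 73.4, 82.0 and 84.0 CPM (0.44 ± 0.08, adjusted p = 0.0166), BNIP3L, a mitophagy receptor, rose by 0.42 ± 0.11, and GAPDH fell by 0.31 on the log2 scale (SE 0.08, adjusted p = 0.0416; 0.281 with the offset).

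The remaining large falls were of mixed kinds. KLC2, a light chain of the motor kinesin, had 37.6, 38.8 and 42.7 CPM in OE against 89.1, 81.4 and 59.8 CPM in OE_NC (-0.95 ± 0.24, adjusted p = 0.0422). PYCR3, of proline synthesis, had 36.9, 23.6 and 23.0 CPM against 59.5, 44.0 and 47.3 CPM (-0.85 ± 0.16, adjusted p = 0.0166). The phosphatase regulator PPP1R16A (-0.85 ± 0.22) and the sperm channel gene CATSPER2 (-0.86 ± 0.21) were also among the 12 largest; CATSPER2 shares 176 exon bases with the abundant PDIA3 on the other strand and is uncertain. The mitochondrial ribosomal RNA KEH36_r02 (-1.03 ± 0.24) was another of the 12. By annotated type, 91 of 864 tested pseudogenes were lower (10.5%) and 2 higher, with a median exon length of 972 bases, and 23 were lower with the offset. Among protein-coding genes 333 of 13215 rose and 218 fell. Reads of a pseudogene and its parent gene may be shared. Of the markers of other cell types, 6 endothelial, 6 bone and cartilage and 5 epithelial and hepatocyte genes were tested and 0 were called in the fit of 12 libraries; the most abundant were FLT1 (55.2 to 62.3 CPM in OE, 60.7 to 80.7 CPM in OE_NC) and SPP1 (63.1 to 69.2 and 77.5 to 127 CPM). SPP1, a bone matrix protein, was lower without overlap (-0.56 ± 0.18, adjusted p = 0.0786), and DESeq2's Wald test (adjusted p = 0.0279) and edgeR on only the 6 libraries (adjusted p = 0.0333) called it. The apolipoprotein APOA1, of the hepatocyte markers, had 13.86, 13.98 and 13.58 CPM in OE against 10.5, 10.6 and 9.94 CPM in OE_NC, also without overlap (0.41 ± 0.14, adjusted p = 0.102), and was called with the length offset (adjusted p = 0.0493) and on only the 6 libraries (adjusted p = 0.0171).

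The change under overexpression was set beside the change in the interference experiment (si minus si_NC), whose labels name no target and whose controls are other libraries. The difference between both changes was tested with edgeR, which called 1371 genes (8.41%), of which 508 were among the 728. Since these 728 were selected by one of both changes, the share is a description. HGFAC itself had a log2 fold change of -0.35 ± 0.27 in interference (adjusted p = 0.512). NEXN rose under overexpression (0.35) and fell in interference (-0.66, adjusted p = 0.000313), and the difference had an adjusted p of 7.18e-05. TRDMT1, an RNA methyltransferase gene, did the opposite, with -0.44 and 0.65 and an adjusted p of 0.000311 for the difference. It shares 71 of 2499 exon bases with the abundant VIM (mean 5490 CPM) on the other strand and is uncertain. ATP8 also went both ways (-0.74 and 0.52; adjusted p of the difference 5.4e-06), as did ND6 (-0.49 and 0.51; 0.000928), and the mitochondrially encoded list had medians of -0.37 and 0.31, with 11 of 13 differences called. TRIM25 rose under overexpression (0.38) and fell in interference (-0.33, adjusted p = 0.0296; 0.00219 for the difference). BIRC3 (-0.07 in interference; adjusted p of the difference 0.00152), CXCL2 (-0.19; 0.00712) and IRF1 (0.24; 0.0115) differed between the experiments without being called in interference. For PARP14, MX1 and CYP3A4 the difference was not called (adjusted p = 0.079, 0.421 and 0.121). Among the immune lists the difference was called for 4 of 32 interferon effectors, 0 of 15 sensors and 1 of 21 interferon regulatory factors. It was called for 3 of 20 MHC class I, 4 of 26 NF-kB, 4 of 23 chemokine and 2 of 20 complement genes. Over all tested genes the share was 8.41%. For collagens it was called in 0 of 26, and for matrix glycoproteins and proteoglycans in 3 of 37. The last list had a median of 0.17 under overexpression and 0.22 in interference.

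**Figure D5:**
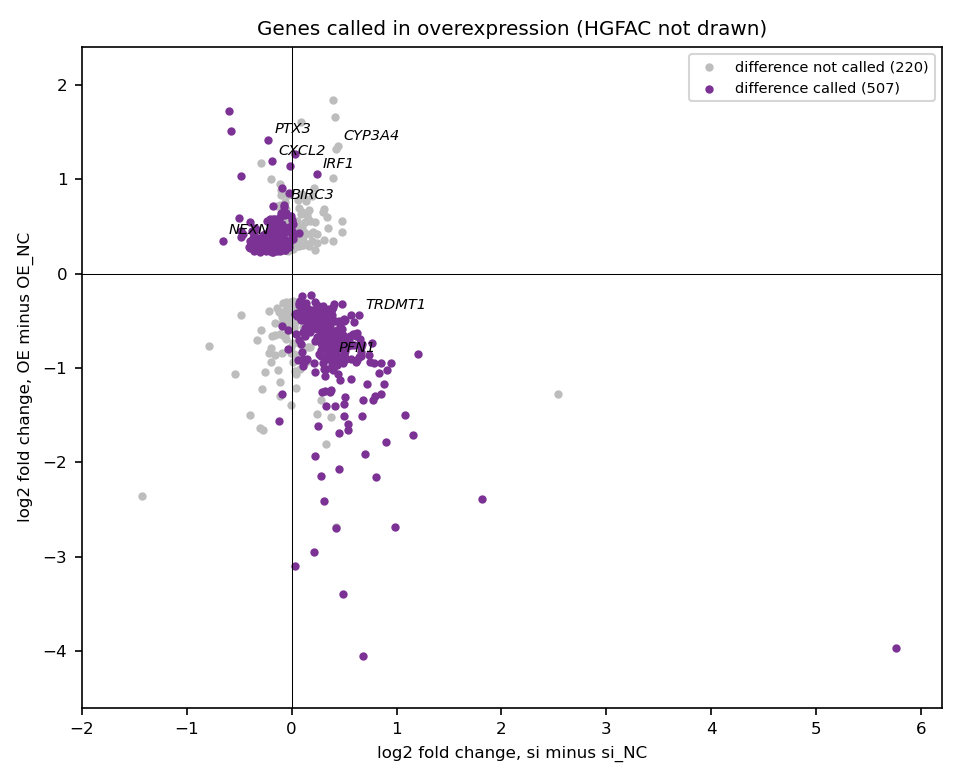
Log2 fold change under overexpression (OE minus OE_NC, vertical) against that in interference (si minus si_NC, horizontal) for the 727 genes called under overexpression other than HGFAC; purple points have a called difference between both changes (507), grey points do not. NEXN lies above and left of the origin and TRDMT1 below and right of it, and IRF1 and CYP3A4 lie on the side where both values are positive.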

How the data were processed

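Unnormalised counts of reads on each gene are what the authors deposited. Per the submitters' processing notes, fastp 0.23.0 and featureCounts (Subread 1.5.1) were used; aligner, build, strand setting and handling of multi-mapping reads: not given in the sources used here. Entries naming no gene (0.088 to 0.116% of counts in these 6 libraries) were left out. Between 66.2 and 69.3% of nonzero counts were even, so halved counts were tried. After filterByExpr (a count of 10 and a total of 15 as minima), genes were tested with 12 libraries in 1 model of 4 group means, TMM scaling and edgeR 4.0.16's quasi-likelihood test (R 4.3.3; 8 residual degrees of freedom). Calls are Benjamini-Hochberg adjusted p under 0.05. Errors, called SE, are the absolute log2 fold change divided by the square root of the test's F statistic. CPM uses TMM-scaled totals. Exon length is the count table's. The length offset is a natural spline with 4 degrees of freedom per library. The procedure was tested on simulated data.

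Members and the 50 lists were chosen with earlier results of these data known, as was the length offset; of 1496 listed symbols 1477 were matched, 26 by synonym. Named were HGFAC, the 12 largest rises and falls with a symbol and at least 5 CPM, the 10 most abundant called genes, those called in every refit, up to 6 called members per list (the 2 most abundant where fewer than 2 were called) and the 10 smallest p of the difference between experiments; not all are printed, and uncalled genes outside this rule were chosen after their values were seen. Sequences were not used here, and a few genes are not reported here.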

Additional observations from a re-analysis of the deposited data

How the results depend on the processing

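HGFAC kept its direction and call under every alternative run. The count of called genes (728; 362 higher, 366 lower) was 1546 (777 and 769) with DESeq2 1.42.0's Wald test, 1679 (691 and 988) without a filter on low counts and 1621 (762 and 859) in a fit of only the 6 libraries; library totals gave 159 higher and 653 lower and moved the median of all genes to -0.061, and the length offset gave 146 lower. DESeq2's size factors gave 716, a filter of 5 CPM in 3 libraries 741 and halved counts 858. Leaving out 1 library gave 19 to 758 genes, 10 to 316 higher and 9 to 442 lower, and 588 to 1196 in place of 1371 for the difference between experiments. Same-numbered OE and OE_NC libraries deviated together at r of 0.045, -0.010 and -0.015, so the numbers do not pair them; with replicate number as a block 76 genes were called (20 higher, 56 lower) and 305 for the difference, and in the lists below there were 5 immune rises (1 of them an interferon effector), 1 contractile rise, and 5 mitochondrially encoded, 1 nuclear respiratory and 0 ribosomal falls.

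The 28 immune rises were 43 without a filter or in the fit of 6 libraries, and 2 to 26 with 1 library left out. The 8 interferon effectors were 5 with library totals or the 5 CPM filter, 15 without a filter, 13 in the fit of 6 libraries and 0 to 8 with 1 library left out; their median was 0.43 with the offset. The contractile rises were 0 to 6 with 1 library left out, and their median was 0.038 with library totals and 0.14 with the offset. The 9 mitochondrially encoded falls were 1 with the offset and 1 to 10 with 1 library left out; their median was -0.43 with library totals, -0.086 with the offset and -0.42 to -0.35 with 1 library left out. The 10 nuclear respiratory falls were 21 without a filter, 1 with the offset and 1 to 10 with 1 library left out, and the offset reversed their median to 0.040. The 16 ribosomal falls were 28 with library totals or the Wald test, 47 without a filter, 37 in the fit of 6 libraries, 2 with the offset and 0 to 27 with 1 library left out, with a median of -0.012 with the offset. Of 124 called genes selected by the naming rule besides HGFAC, 0 changed direction under the alternatives run; 47 lost their call with the offset, 25 with library totals, 94 with the block and 21 to 110 with 1 library left out. Among uncalled genes given above, RGS12 (0.08) ranged from -0.0088 to 0.15 with 1 library left out. Where a median or count moved, the cause was not tested beyond the fewer or more genes or libraries used.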
